A study of Mus musculus with 32 samples.

Results

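The locus of Igfbp1 and Igfbp3, genes of the insulin-like growth factor binding proteins 1 and 3, was examined for glucocorticoid receptor (GR) binding, C/EBPβ binding and chromatin accessibility in mouse liver. Its members are the intervals whose centre lies in chr11:7030000-7180000 (mm9), a window of 150 kb, in each of the 5 deposited lists. They are 52 of the 180039 intervals of the lists: 10 of 11666 GR peaks, 12 of 25392 C/EBPβ peaks after dexamethasone, 7 of 22714 C/EBPβ peaks after vehicle, 14 of 63473 DNase I hypersensitive sites (DHS) found after dexamethasone and 9 of 56794 found after vehicle. The locus was chosen by its position around these genes, with the contents of the lists known, so the presence of an interval in a list is given below as a description and not as a test.

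The livers came from male C57BL/6 mice 8 weeks old, and every animal had been adrenalectomized, which removes the main source of its own corticosterone. One group was injected with dexamethasone, a synthetic GR ligand, at 1 mg/kg as a cyclodextrin complex in 300 ul of saline, and the other with cyclodextrin alone as vehicle; tissue was taken after 1 h. DNase-seq, GR ChIP-seq and C/EBPβ ChIP-seq had 2 samples in each group, but each condition is represented by 1 list per assay with positions only. The name of the GR list gives no treatment. Depth and peak height are therefore unknown, no difference between the lists has a replicate check, and no p-value is given. Whole liver was used, so a site open in more cells and a site more open in each cell cannot be told apart. The lists hold no expression values, so liver marker genes were not examined.

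Igfbp1 and Igfbp3 encode secreted proteins that bind insulin-like growth factors in the circulation and limit or prolong their access to the receptor. Hepatocytes are a main source of IGFBP1, whose gene is known as a target of glucocorticoids, which raise it, and of insulin, which lowers it through FOXO factors. IGFBP3 is the major carrier in serum, where it forms a complex with the acid-labile subunit, and in liver it is made largely by non-parenchymal cells. GR is a ligand-dependent transcription factor that binds DNA when hormone is present, and C/EBPβ is a leucine zipper factor of hepatocytes. DNase I hypersensitivity marks DNA accessible to factors.

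In the RefSeq annotation of GRCm38.p6 the protein-coding genes follow each other in the order Adcy1, Igfbp1, Igfbp3 and Tns3. The promoter table places Igfbp1 on the plus strand and Igfbp3 on the minus strand. That build differs from the mm9 of the lists and positions were not converted, so no interval below is assigned to a promoter, an exon or an intron, or to either gene alone. The 250 bases before each start site are shown to give the letters of both promoters, with the motif AAACA (the core recognised by FOXO factors in insulin response elements, searched on both strands) in capitals. They are from RefSeq on GRCm38.p6, chr11:7197537-7197786 on the plus strand for Igfbp1 and chr11:7213924-7214173 on the minus strand for Igfbp3, written 5′ to 3′.

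Igfbp1: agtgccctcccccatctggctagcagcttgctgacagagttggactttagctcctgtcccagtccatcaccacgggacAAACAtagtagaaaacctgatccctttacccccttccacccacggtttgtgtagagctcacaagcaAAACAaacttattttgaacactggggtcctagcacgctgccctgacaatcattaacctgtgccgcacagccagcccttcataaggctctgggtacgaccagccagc
Igfbp3: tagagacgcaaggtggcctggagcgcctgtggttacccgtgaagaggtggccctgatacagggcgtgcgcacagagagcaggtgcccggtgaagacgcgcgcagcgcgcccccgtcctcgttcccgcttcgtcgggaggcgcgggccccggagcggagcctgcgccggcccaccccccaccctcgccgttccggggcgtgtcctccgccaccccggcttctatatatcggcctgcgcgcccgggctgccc

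The Igfbp1 sequence held AAACA at 172 to 168 and at 106 to 102 bases before the start, and the Igfbp3 sequence held none. The motif was found in 46.4% of the 32851 promoter windows of this length. Neither gene matched TGTTCT, a site for 1 GR monomer (16.1% of windows), the looser palindrome GNACANNNTGTNC for a GR dimer (0.387%), the C/EBP motif TTGCNNAA (9.56%) or the TATA box TATAAA (12.4%), all searched on both strands. None of these motifs overlapped another in the sequences shown. Only the letters given were searched, so variants, such as tatata near the start of Igfbp3, were not counted. The Igfbp1 sequence had a GC content of 53.2%, near the median of all windows (52.4%), and the Igfbp3 sequence 73.2%, higher than in 94.3% of windows. Of 15 genes of the insulin-like growth factor pathway (IGF binding proteins, ligands, receptors, the acid-labile subunit and insulin receptor substrates), 14 had a promoter in the table, with 20 windows in all, and Insr had none. AAACA was found in 8 of the 20 windows, TGTTCT in 3 and TATAAA in 2, while the GR palindrome and the C/EBP motif were found in 0.

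GR bound the locus at 10 sites in 2 groups. GR peaks 1 to 6, numbered in genome order, came first, at chr11:7035348-7035498, 7045208-7045358, 7048180-7048330, 7052512-7052662, 7053160-7053310 and 7056449-7056599. GR peaks 7 to 10 followed at chr11:7092869-7093019, 7094675-7094825, 7096607-7096757 and 7097541-7097691. No interval of any list lay in the 30.5 kb from 7056950 to 7087405 that separate the groups. Within the groups GR peaks were close together: the smallest spacing of neighbouring centres was 648 bp, between GR peaks 4 and 5, and the median spacing over all 10 peaks was 2972 bp, against 29234.5 bp for neighbouring GR peaks of the whole list.

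**Figure D1:**
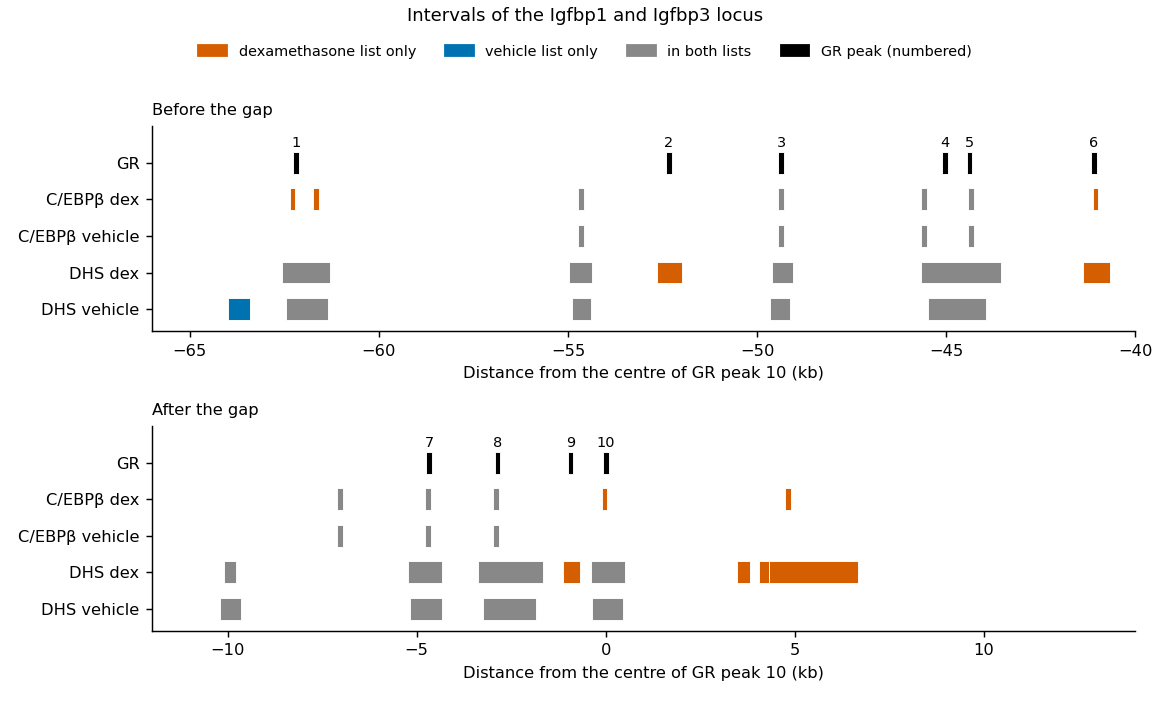
Map of the 52 intervals of the locus by list, with distance in kb from the centre of GR peak 10 on the horizontal axis, in 2 panels at the same scale. Orange marks intervals found in the dexamethasone list only, blue the vehicle list only, grey both lists and black the numbered GR peaks; the 3 orange DHS at the right end, separated by 234 and 24 bp, hold no GR peak.

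The far side of the window was empty. The last member ended at 7104288, and the remaining 75.7 kb of the window held no GR peak, no C/EBPβ peak and no DHS in any list. The next interval of any list was a vehicle DHS at chr11:7195933-7196471, 91.6 kb beyond the last member. Just outside the other edge, a DHS of both lists (chr11:7020677-7021188 after dexamethasone, 7020630-7021116 after vehicle) held a vehicle C/EBPβ peak at chr11:7020856-7021006. The nearest GR peaks lay 970 kb before GR peak 1 and 322 kb after GR peak 10.

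All 10 GR peaks lay in a DHS of the dexamethasone list, as did 96.6% of all GR peaks. For 7 of them (GR peaks 1, 3, 4, 5, 7, 8 and 10) a vehicle DHS was present at the same place, near the 79.2% of GR peaks in general. GR peaks 2, 6 and 9 lay in DHS that the vehicle list did not have at all; the share of such GR peaks in the whole list was 15.6%. These 3 GR peaks sat close to the middle of their DHS, with centres 21.5, 71.5 and 35.5 bp apart. The same offset for the 7 GR peaks in shared DHS ran from 21.5 bp (GR peak 3) to 425.5 bp (GR peak 4). A narrow DHS limits this offset, so no trait of the 3 GR peaks is read from it. With 10 peaks in all, 1 peak more or less moves each share by 10 percentage points.

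C/EBPβ, the factor whose role in GR recruitment the series set out to examine, overlapped 7 of the 10 GR peaks after dexamethasone and 4 after vehicle. The whole GR list had 62.0% with a dexamethasone and 50.4% with a vehicle C/EBPβ peak. GR peaks 3, 5, 7 and 8 carried C/EBPβ in both conditions, and all 4 lay in DHS present in both lists. GR peaks 1, 6 and 10 had C/EBPβ after dexamethasone only, that is 3 of 10 against 11.9% of all GR peaks. GR peak 1 dropped out of these when most of the shorter interval, or a centre, had to be covered. The window was chosen with the lists known, so nothing is read from this share. GR peaks 2, 4 and 9 overlapped no C/EBPβ peak of either list, against 37.6% of all GR peaks.

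Where GR and C/EBPβ peaks overlapped, which by itself limits the distance of their centres, the offsets differed between sites. At GR peak 3 the centres were 0.5 bp apart, at GR peaks 7 and 8 30.5 bp, at GR peak 10 32 bp, at GR peak 6 42 bp, at GR peak 5 43.5 bp and at GR peak 1 94 bp. The median of these 7 pairs was 32 bp, against a median of 19 bp and an upper quartile of 37.5 bp for the 7265 pairs of the whole lists, and 3 of the 7 offsets were above that quartile. The GR peaks without C/EBPβ differed in how far the next one was: the centre of the nearest dexamethasone C/EBPβ peak lay 550 bp from GR peak 4, 902 bp from GR peak 9 and 2332.5 bp from GR peak 2. For the 3 GR peaks with C/EBPβ after dexamethasone only, the nearest vehicle C/EBPβ peak lay 7527.5, 3245.5 and 2896.5 bp away (GR peaks 1, 6 and 10).

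**Figure D2:**
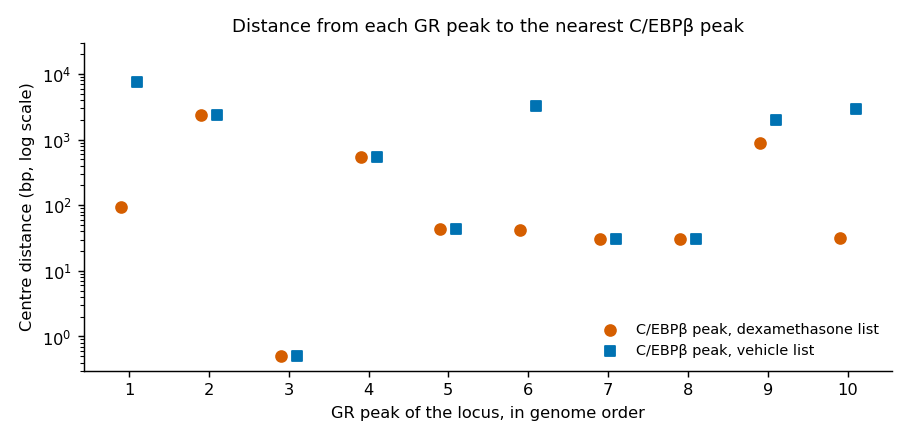
Centre distance in bp (log scale) from each of the 10 GR peaks of the locus to the nearest C/EBPβ peak of the dexamethasone list (circles) and of the vehicle list (squares). For GR peaks 1, 6 and 10 the circle is at 94, 42 and 32 bp while the square is at 7527.5, 3245.5 and 2896.5 bp; for GR peak 3 both are at 0.5 bp.

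C/EBPβ peaks numbered 12 after dexamethasone and 7 after vehicle. All 7 vehicle peaks were also in the dexamethasone list, with the same coordinates there, and 5 of the 12 dexamethasone peaks were in that list alone, against 20.0% of all dexamethasone C/EBPβ peaks. How the lists were made is not known, so equal coordinates are not read as separate measurements of position. In the whole vehicle list 10.6% of peaks were absent after dexamethasone, so 0 of 7 is near the general share, and the vehicle peak at chr11:7020856-7021006 just outside the window had no dexamethasone counterpart. The added peaks were at chr11:7035254-7035404 and 7035878-7036028, both in the DHS of GR peak 1, at 7056491-7056641 on GR peak 6, at 7097509-7097659 on GR peak 10, and at 7102350-7102500, 4659 bp from the edge of GR peak 10. A GR peak overlapped 3 of these 5 (27.5% of dexamethasone-only C/EBPβ peaks in general) and 4 of the 7 in both lists (28.9% in general). The window is dense in GR peaks and was chosen with the lists known. Nothing is therefore read from these shares or from the 5 of 12.

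Most C/EBPβ peaks of the locus lay in accessible sites, at shares near those of the whole lists. Of the 12 dexamethasone C/EBPβ peaks, 11 lay in a dexamethasone DHS; the exception was the peak at chr11:7090517-7090673, present in both lists and 1724 bp from the nearest dexamethasone DHS. Over the whole list, 14.2% of dexamethasone C/EBPβ peaks lay outside dexamethasone DHS. Of the 7 vehicle C/EBPβ peaks, 5 lay in a vehicle DHS, against 82.9% of all vehicle C/EBPβ peaks. Besides the peak just named, the peak at chr11:7051959-7052115 was outside, by 22 bp, but lay inside the wider dexamethasone DHS of GR peaks 4 and 5.

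Accessible sites were more numerous after dexamethasone, with 14 DHS against 9. Of the 14, 6 had no counterpart after vehicle, against 23.8% of all dexamethasone DHS, and of the 9 vehicle DHS 1 had no counterpart after dexamethasone, against 14.9%. Of the 6, 3 lay in a block of 3205 bp, separated by 234 and 24 bp, so this count depends on where intervals were split. A GR peak lay in 9 of the 14 dexamethasone DHS, where 16.7% of all such DHS held one. It was found in 6 of the 8 shared DHS (18.2% of shared DHS in general) and in 3 of the 6 dexamethasone-only DHS (11.9% in general). The window was chosen with these lists known, so nothing is read from the shares with GR or from the share absent after vehicle. The DHS of GR peaks 4 and 5 held 2 GR peaks. Of all dexamethasone DHS, most of which held none, 1.03% held 2 or more. This DHS was also wider than 99.6% of shared dexamethasone DHS.

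**Figure D3:**
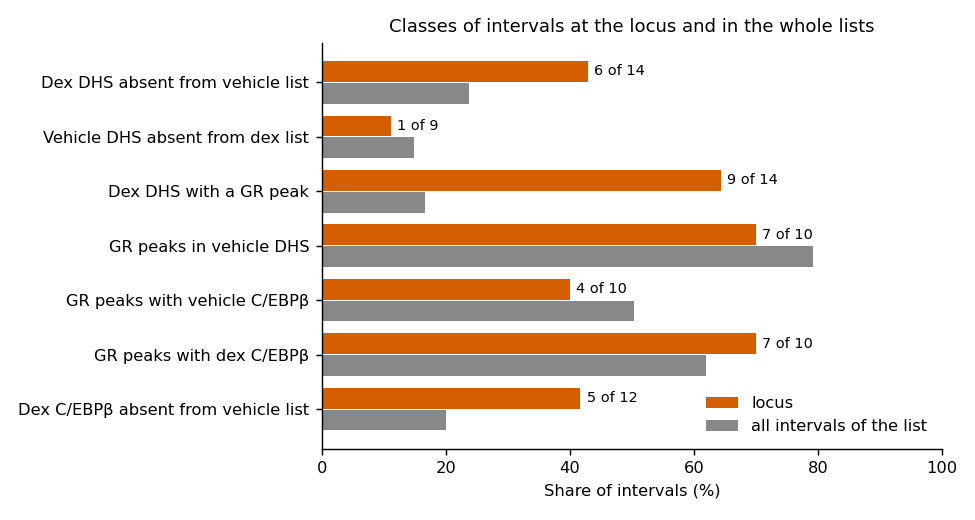
Share of intervals in each class, in percent, for the locus (orange, with the count) and for all intervals of the same list (grey). DHS absent from the vehicle list (6 of 14 against 23.8%), C/EBPβ peaks absent from the vehicle list (5 of 12 against 20.0%) and DHS with a GR peak (9 of 14 against 16.7%) had the higher bars at the locus, while GR peaks in vehicle DHS were at 7 of 10 against 79.2%. Some of the 6 DHS absent from the vehicle list lie together in a block of 3205 bp.

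The 6 dexamethasone-only DHS fell into 2 kinds by their distance to GR. DHS chr11:7044974-7045635 (661 bp wide, GR peak 2), chr11:7056241-7056950 (709 bp, GR peak 6) and chr11:7096493-7096942 (449 bp, GR peak 9) each held 1 GR peak. The first was 1739 bp and the next 2578 bp from the nearest vehicle DHS, so they stood alone, while the DHS of GR peak 9 was 316 bp from the vehicle DHS of GR peak 10. In width, the DHS of GR peaks 2 and 6 exceeded 90.1% and 93.5% of all dexamethasone-only DHS, and that of GR peak 9 exceeded 41.1%. Only 11.9% of that class held a GR peak. C/EBPβ was present at 1 of the 3, the DHS of GR peak 6, and there after dexamethasone only; of all dexamethasone-only DHS with a GR peak, 29.8% held a dexamethasone C/EBPβ peak.

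The other 3 dexamethasone-only DHS formed a block past GR peak 10 and held no GR peak. They were chr11:7101083-7101431 (348 bp), chr11:7101665-7101919 (254 bp) and chr11:7101943-7104288 (2345 bp), separated by 234 and 24 bp, so that the block spanned 3205 bp. Their edges lay 3392, 3974 and 4252 bp from GR peak 10, the nearest GR peak of the list. Dexamethasone-only DHS without GR were usually much farther from GR, with a median of 54460 bp (quartiles 10454 and 195530 bp, n = 13262 on chromosomes with a GR peak), and 17.1% of them lay within 5 kb of a GR peak. Shared DHS without GR of the locus also lay near GR, at 1962 and 5035 bp in the dexamethasone list. The median of that class was 47902 bp. The locus is dense in GR peaks and was chosen with the lists known, so nothing is read from these short distances. The nearest vehicle DHS lay 3002 bp from the block.

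The DHS of 2345 bp was the widest interval of the locus in either condition. Among the 15076 dexamethasone-only DHS of the genome, 4 were at least as wide, and it was the narrowest of these 4; the median of the class was 476 bp. Of the 4, 2 held a GR peak and 3, this one included, held a dexamethasone C/EBPβ peak. Its C/EBPβ peak at chr11:7102350-7102500 was itself absent from the vehicle list. Of all dexamethasone DHS, including those shared with vehicle, 134 were as wide or wider.

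DHS present in both lists were wider after dexamethasone where GR bound. The 8 shared DHS were matched one to one. The DHS of GR peak 1 measured 1253 bp after dexamethasone and 1115 bp after vehicle, that of GR peak 3 557 and 535 bp, that of GR peaks 4 and 5 2123 and 1526 bp, that of GR peak 7 883 and 865 bp, that of GR peak 8 1695 and 1416 bp and that of GR peak 10 911 and 823 bp. All 6 were thus wider in the dexamethasone list, as were 70.8% of matched DHS with GR in general. Their log2 width ratios ran from 0.03 to 0.48 with a median of 0.16, close to the 0.12 of the 8114 matched DHS with GR. The differences were small at 4 of the 6, from 18 to 138 bp, and reached 279 bp at GR peak 8 and 597 bp at GR peaks 4 and 5.

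The increase at GR peaks 4 and 5 was on both sides, 186 bp at the start and 411 bp at the end. The added stretch at the start took in the C/EBPβ peak at chr11:7051959-7052115, which both lists hold. The 2 shared DHS without GR went opposite ways. The DHS at chr11:7042651-7043246, with a C/EBPβ peak in both lists, measured 595 bp after dexamethasone and 504 bp after vehicle. The DHS at chr11:7087509-7087834 measured 325 bp against 574 bp, a log2 ratio of -0.82 that was lower than at all but 2.42% of the 36267 matched DHS without GR, of which 46.7% were wider after dexamethasone. This DHS held no C/EBPβ peak and lay 5035 bp from GR peak 7.

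**Figure D4:**
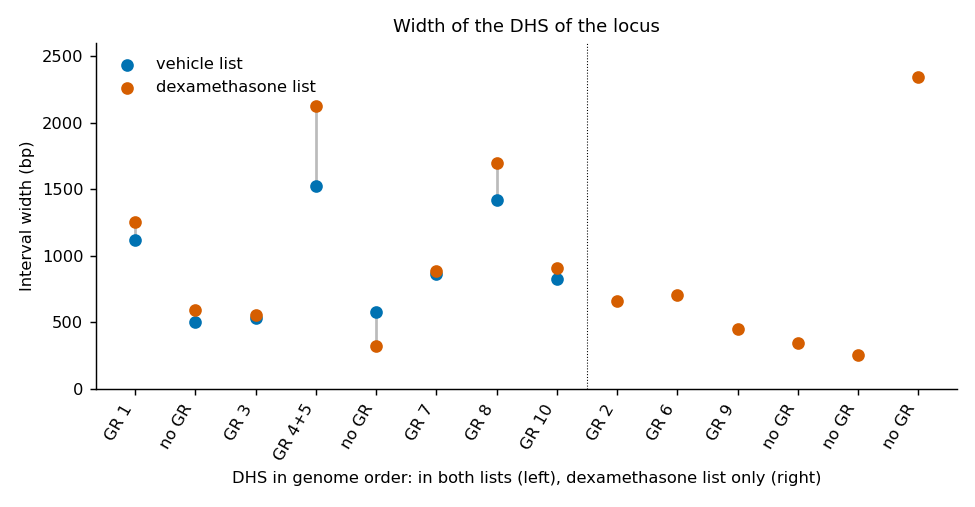
Interval width in bp of the DHS of the locus, vehicle in blue and dexamethasone in orange, joined by a line where a DHS is in both lists; the 6 dexamethasone-only DHS stand right of the dotted line. Every pair with a GR peak has the orange point higher, 1 pair without GR (574 against 325 bp) has it lower, and the DHS at the right end reaches 2345 bp.

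The only DHS found after vehicle alone was chr11:7033626-7034217, 591 bp wide and 839 bp from the nearest dexamethasone DHS. It lay 1131 bp from GR peak 1 and was wider than 91.1% of vehicle-only DHS. In all, the DHS of the locus covered 13108 bp after dexamethasone (mean width 936 bp, n = 14) and 7949 bp after vehicle (mean width 883 bp, n = 9), a ratio of 1.65 against 1.11 for the whole lists. Dexamethasone-only DHS made up 4766 bp, or 36.4%, of the 13108 bp. The sum depends on what was called in each list, and the 2345-bp DHS alone is a large part of the added length.

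In windows of 150 kb, few places in the genome held as many GR peaks, or as many C/EBPβ peaks found after dexamethasone only, as the locus. Of the 12029 windows of 150 kb that held a DHS, 67 (0.557%) had 10 or more GR peaks and 49 (0.407%) had 5 or more dexamethasone-only C/EBPβ peaks. The shares were larger for the 100 kb in the middle of the window, which held 5 GR peaks and 3 dexamethasone-only C/EBPβ peaks: 3.22% and 1.95% of the 15939 windows of that length had as many. For dexamethasone-only DHS, 216 windows had 6 or more. For the full lists, 153 windows (1.27%) had 12 or more dexamethasone and 716 (5.95%) had 7 or more vehicle C/EBPβ peaks, and 745 (6.19%) had 14 or more dexamethasone and 2120 (17.6%) had 9 or more vehicle DHS. Runs of 10 consecutive GR peaks spanned 62.2 kb or less, as at the locus, in 92 of 11486 cases (0.801%). These ranks describe a window chosen with the contents of the lists known and are compared with windows on a fixed grid, which favours the locus.

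**Figure D5:**
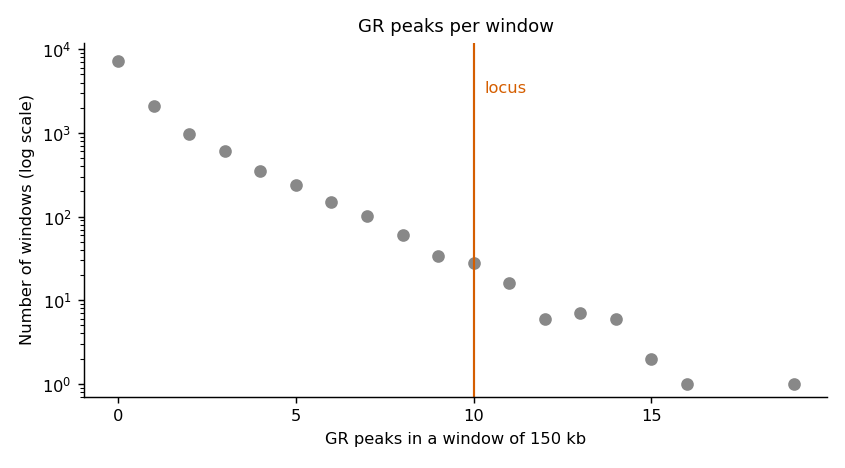
Number of 150-kb windows (log scale) by the number of GR peaks they hold, for the 12029 windows with a DHS; the orange line marks the 10 GR peaks of the locus. Most windows (7316) hold 0 GR peaks, and 67 hold as many as the locus or more.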

How the data were processed

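The authors deposited 5 lists of mm9 intervals for the series, and the values they hold are positions only (chromosome, start, end and a running identifier). The build mm9 and CASAVA 1.8 are named per the submitters' processing notes. Information on the aligner, the peak caller, its threshold and any pooling of samples is not given in the sources used here. Positions are printed as in the files and intervals were treated as half-open. All 11666 GR peaks were 150 bp wide. The dexamethasone DHS list had 3 duplicate rows, 0 of them at the locus. No column of per-sample values was left unused (0), and the adenovirus, polymerase II and input samples were not analysed here.

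A minimum of 1 bp in common made 2 intervals shared. An interval is called list-only when it shared no base with the other list of its assay. Distances between intervals run from edge to edge unless centres are named. Widths were compared for pairs of DHS, 1 from each list, in which neither overlapped a further DHS of the opposite list. Windows of 150 kb were tiled from the start of each chromosome, and those without a DHS were left out. Shares over all intervals are given beside the counts of classes, and no test was made, since each condition has 1 list. Overlap counts were tested on simulated lists and equalled bedtools 2.31.1 in 7 of 7 checks on the deposited lists. Python 3.11.15, numpy 2.4.6, pandas 2.3.3 and matplotlib 3.10.9 were used.

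The locus, the motifs and the list of insulin-like growth factor genes were chosen with earlier results of these data known. Every GR peak, every interval found in 1 list only and every DHS with a GR peak is named, with the widest and narrowest DHS. Alternatives changed the overlap rule, the window, the DHS used and the grid.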

Additional observations from a re-analysis of the deposited data

How the results depend on the processing

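Of 95 values recomputed under an alternative setting, 78 stayed within 1.5 times the reported count and 17 moved beyond it. For the width ratio the limit was 1 SD. Counts and distances cannot change sign, so sign was not a check for them. Some of the 78 could not have moved, so their number is not a measure of stability. No interval crossed an edge of the window, so counting by any overlap with it changed nothing. C/EBPβ counts do not depend on which DHS are used. At the locus no DHS was left out for its exact width, and a wider window added none with GR, so the width ratio was fixed. Changes of the overlap rule moved no count beyond 1.5 times the reported one, but some counts shifted. The rules were most of the shorter interval covered, a centre inside the other interval, and within 500 bp. In that order dexamethasone-only DHS numbered 6, 6 and 5, and the last rule lost the DHS of GR peak 9. GR peaks with a dexamethasone C/EBPβ peak numbered 6, 6 and 8, against 7 by the 1-bp rule. Those with a vehicle peak numbered 4, 4 and 5, against 4, and those with none 4, 4 and 2, against 3. The first 2 rules removed the C/EBPβ peak of GR peak 1, at a centre offset of 94 bp. With the window extended by 50 kb on each side, vehicle-only DHS numbered 2 and vehicle-only C/EBPβ peaks 1. Shortening the window by 25 kb on each side drops the first 5 GR peaks by construction. It left 3 GR peaks in vehicle DHS, 2 with a vehicle and 4 with a dexamethasone C/EBPβ peak, 1 with none, 3 C/EBPβ peaks in both lists, 3 in the dexamethasone list only and 0 vehicle-only DHS. With only DHS above the median width, 2 GR peaks lay in no DHS and vehicle-only DHS numbered 0. In windows of 100 kb centred on the locus, which leave out its first 25 kb, 513 windows had as many GR peaks, 1010 as many dexamethasone and 3174 as many vehicle C/EBPβ peaks, 1822 as many dexamethasone and 6230 as many vehicle DHS, and 311 as many dexamethasone-only C/EBPβ peaks. No paired analysis was possible because each condition has 1 list with no sample columns. Leaving out a sample was not possible for the same reason. Depth is unknown, so absence from a list may be a site under the authors' threshold.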

Other observations

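The windows of 150 kb on either side of the locus were nearly empty. The window before it held 0 GR peaks, 1 DHS in each list and 1 vehicle C/EBPβ peak, and the window after it held 0 GR peaks, 0 C/EBPβ peaks, 1 dexamethasone and 2 vehicle DHS. The nearest dexamethasone C/EBPβ peaks outside the locus were 504 kb before the window and 479 kb after it.

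The other 3 dexamethasone-only DHS as wide as the 2345-bp DHS of the locus were chr12:105579325-105587672 (8347 bp), chr9:106132196-106135739 (3543 bp) and chr8:96696191-96698918 (2727 bp). The intervals on chromosomes 12 and 9 held a GR peak, and the one on chromosome 8, like that of the locus, held C/EBPβ but no GR peak. They were looked up after their widths were seen.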
